A study of Sus scrofa with 12 samples.

Results

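Fatty acid oxidation and lipolysis were followed here through 31 genes, chosen by symbol: the enzymes, carriers and regulators of fatty acid oxidation, and the lipolysis genes PNPLA2, LIPE, ABHD5 and MGLL. Of these, 30 had a value in the gene expression table, which holds 20889 genes, and 28 lay under at least 1 of the merged peaks, which cover 11422 genes. ECI1, a mitochondrial enoyl-CoA isomerase, was matched in neither table. ACAA2 and PPARGC1A had an expression value and no peak. The 28 genes held 57 of 25055 peaks, and 44 of the 57 were listed under 1 gene only, which gave 23 genes a peak of their own.

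Wild-type IPEC-J2 cells, which are pig intestinal epithelial cells grown as a line, were cultured for 24 h without OAA (0 µM, CON) or with 25 µM OAA. The series title concerns a bacterial 2-oxindole derivative and lipid accumulation linked to obesity, and the labels do not spell OAA out. In the assay, MeRIP-seq, fragmented RNA was pulled down with an antibody against N6-methyladenosine (m6A, a methyl mark on adenosines inside mRNA) and sequenced beside an input portion without pull-down. Each treatment had 3 replicates with a library titled IP and a library titled input, which made 12 libraries in 4 groups. The labels do not say whether replicates were grown as separate cultures, so the p-values reflect the spread among these particular samples, possibly technical.

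Triglycerides are taken apart on the lipid droplet by adipose triglyceride lipase (PNPLA2) with its coactivator ABHD5, then hormone-sensitive lipase (LIPE) and monoglyceride lipase (MGLL). The released fatty acids are activated to acyl-CoA, carried into mitochondria as carnitine esters by CPT1A, SLC25A20 and CPT2, and shortened in a cycle of dehydrogenation, hydration, a second dehydrogenation and thiolysis, while peroxisomes run a related cycle on very long and dicarboxylic chains. Transcription of many of these genes is driven by the fatty acid receptors PPARA and PPARD, with PPARGC1A as a coactivator, and in the small intestine the pathway is known for handling dietary fat and for fuelling enterocytes and stem cells.

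Given the titles, read depth and deposited columns together, it is unclear which libraries hold the antibody-bound RNA. That touches every peak value given here. Groups follow the titles. Libraries titled input held 16491095 to 23010413 reads in peaks and libraries titled IP 3709352 to 4607452, and the expression columns carry the codes of libraries titled IP. The peak ratio is therefore given in the direction of the authors' deposited table, as log2 of labelled input over labelled IP, but scaled so that the typical peak is near 0. The authors' deposited table uses another scale, on which all 57 peaks are above 0 in CON, from 0.22 to 8.00 with a median of 3.16, beside 3.97 over all peaks. A ratio below 0 here is thus low relative to other peaks, and the peaks called lower are positive in the authors' deposited table, where ETFDH's coding peak has 1.89 and HSD17B10's start codon peak 0.22. If the titles hold, its sign as antibody enrichment turns around. Differences between OAA and CON within 1 kind of library keep their values either way. Whether they describe antibody-bound or unselected RNA depends on whether the titles are right. The 57 peaks took up 0.138 ± 0.00211% (SD, n = 3) of the reads in peaks of the labelled-input CON libraries and 0.136 ± 0.00126% with OAA. In labelled-IP libraries the shares were 0.234 ± 0.00282% and 0.234 ± 0.00373%. All 5 epithelial markers in the expression table had at least 1 FPKM, led by KRT8 at 396 FPKM. Of 5 enterocyte markers sucrase-isomaltase (SI, 12.8 FPKM) alone reached 1 FPKM, with FABP2 and LCT under 0.05. None of 4 fibroblast, 4 leukocyte and 4 adipocyte markers reached 1 FPKM. All 3 endothelial markers did, with CDH5 highest at 3.78 FPKM and a summed level of 5.52 to 6.73 FPKM in CON and 6.19 to 6.90 with OAA. Among 4 hepatocyte markers APOA1 did, at 4.56 FPKM.

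The pathway was expressed from the carnitine step to electron transfer, over a wide range of levels. FPKM scales read counts by transcript length and library size, so levels of different genes can be set beside each other. These columns belong to libraries titled IP, and if the titles hold, a level mixes expression with antibody binding. In CON, 21 of the 30 genes had a mean of at least 10 FPKM. Among genes expressed enough to test it was 21 of 29, beside 5781 of 10763 over all genes. ECHS1, the short-chain enoyl-CoA hydratase, stood first at 122 ± 1.25 FPKM (SD, n = 3), followed by HADHB at 113 ± 0.456 and ACADM, the medium-chain acyl-CoA dehydrogenase, at 102 ± 2.72. EHHADH, the peroxisomal bifunctional enzyme, came next at 91.6 ± 1.43, and its libraries overlapped those of HSD17B10 (87.1 ± 5.03), a mitochondrial hydroxyacyl-CoA dehydrogenase. HADHA, the partner of HADHB in the trifunctional protein, had 79.5 ± 1.36 FPKM and overlapped ETFA (76.5 ± 4.10), a subunit of the electron transfer flavoprotein.

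The regulators PPARGC1A and PPARA and the lipase LIPE were the lowest of the 30. PPARGC1A was listed at 0.115, 0.0520 and 0.0640 FPKM in CON and at 0.0520, 0 and 0.310 with OAA, and was too low to test. PPARA had 1.47 ± 0.159 FPKM in CON and LIPE 2.63 ± 0.334. PPARD was far above both at 15.5 ± 1.25 FPKM. Of the other lipolysis genes ABHD5 was next lowest, at 6.69 ± 0.326 FPKM, while MGLL (11.1 ± 0.262) and PNPLA2 (24.7 ± 1.37) lay in the middle of the range.

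By role, the mean CON level of the 6 mitochondrial hydratases, hydroxyacyl-CoA dehydrogenases and thiolases ran from 21.0 (ACAA2, the mitochondrial thiolase) to 122 FPKM, with a median of 83.3. The 3 electron transfer genes lay between 36.9 and 76.5 FPKM. The carnitine genes were lower and close together, with CPT1A, the regulated entry step, at 8.06 ± 0.519, CPT2 at 11.9 ± 1.20 and the carrier SLC25A20 at 12.7 ± 1.51. Libraries of SLC25A20 and CPT2 overlapped those of ACAA1, the peroxisomal thiolase (12.4 ± 0.715). The long-chain dehydrogenases differed among themselves, with ACADVL at 34.8 ± 0.599, ACADL at 7.22 ± 0.213 and ACAD9 at 6.72 ± 0.210 FPKM.

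**Figure D1:**
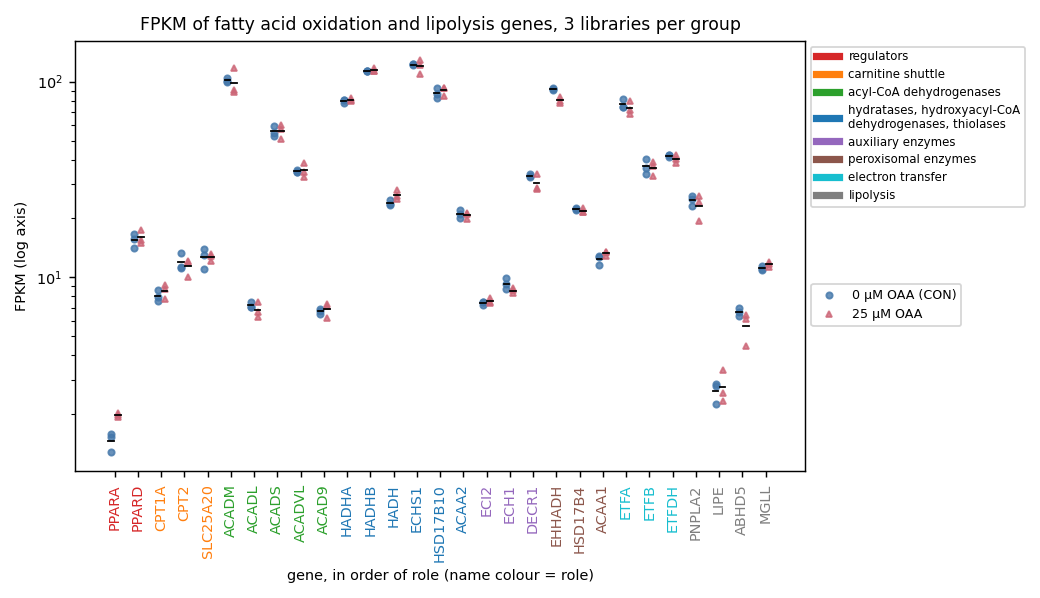
FPKM on a log axis of 29 genes in each of the 3 CON libraries (circles) and 3 OAA libraries (triangles), with the group mean as a bar, in order of role. Levels run from PPARA at 1.47 to ECHS1 at 122 FPKM in CON, and most pairs of groups overlap. PPARGC1A, which has a value of 0, is left out.

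Expression of these genes with OAA lay close to that in CON. None of the 29 genes tested passed an adjusted p of 0.05 in limma with Benjamini-Hochberg adjustment over 10763 genes, where 0% of all genes passed. At an unadjusted p under 0.05 there were 2 of 29, PPARA and EHHADH, against 3.31% of all genes. The differences of log2(FPKM + 1) ran from -0.21 to 0.27 with a median of 0.00, 15 above 0 and 14 below, beside a median of -0.01 over all genes tested. The 95% intervals reached a median of 0.16 to either side of the estimate and 0.27 at most. In these bulk samples, fewer cells of a type and less RNA per cell cannot be told apart.

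EHHADH had lower values in every OAA library. It had 90.2, 91.7 and 93.0 FPKM in CON and 80.0, 83.1 and 78.2 with OAA. The groups did not overlap, and every OAA library lay below every CON library. On the log2 scale the difference was -0.19 ± 0.05 (SE), with an unadjusted p of 0.00274 and an adjusted p of 1.00 in limma. Across all alternatives run for this gene it stayed between -0.21 and -0.17, with adjusted p from 0.124 to 1.00.

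PPARA had higher values in every OAA library, at a low level. It had 1.59, 1.29 and 1.53 FPKM in CON and 1.93, 2.02 and 1.99 with OAA. Again the groups did not overlap, and the OAA libraries lay close together. The difference was 0.27 ± 0.09 (SE) on the log2(FPKM + 1) scale, which understates the change of a gene this low, with an unadjusted p of 0.0150 and an adjusted p of 1.00 in limma. With a pseudocount of 0.1 it was 0.41, the highest of the alternatives run, which went down to 0.22. Without CON labelled-IP replicate 2 the unadjusted p was 0.0596 in limma. The adjusted p was at least 0.247 in every alternative.

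HADH, the short-chain hydroxyacyl-CoA dehydrogenase, was the third gene without overlap, with 23.7, 23.4 and 25.0 FPKM in CON and 28.0, 26.2 and 25.3 with OAA. Its difference was 0.13 ± 0.06 (SE, unadjusted p 0.0537 in limma). In all, 2 of 29 genes had every OAA library above every CON library, against 3.28% of all genes, and 1 of 29 had every OAA library below, against 5.27%.

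The remaining genes overlapped between the groups. Of the 3 carnitine genes, 2 lay above 0 and 1 below, with CPT1A at 0.08 ± 0.08 and CPT2 at -0.06 ± 0.09. All 3 electron transfer genes lay below 0, with a median of -0.05, and the 5 acyl-CoA dehydrogenases had a median of 0.00. ABHD5 had the lowest estimate of all, -0.21 ± 0.11, from 6.37, 6.66 and 7.02 FPKM in CON and 4.49, 6.15 and 6.39 with OAA, so that 1 OAA library lay well below the other two. Summed over the 30 genes, CON libraries held 1074 to 1087 FPKM (mean 1080 ± 6.85) and OAA libraries 1058 to 1065 (mean 1062 ± 3.39), or 0.231 ± 0.00111% and 0.225 ± 0.00241% of all FPKM. These sums did not overlap, and they were not tested. They include EHHADH, whose mean was 91.6 FPKM in CON and 80.4 with OAA, while 15 of the 29 genes tested lay above 0 and 14 below.

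One library moved several of these estimates. The third OAA library lay below the CON mean in a median gene by 0.04 on the log2 scale, where the other two lay above it by 0.01. Without that library, 7 of the genes had an unadjusted p under 0.05 in limma, or 24.1% of 29, and 1763 of all genes tested did, or 16.5% of 10706. They were PPARA and HADH, higher with OAA, and ACADM (-0.18), DECR1 (-0.20), ABHD5 (-0.29), ETFA (-0.13) and EHHADH (-0.17), lower. Their adjusted p ran from 0.124 to 0.265, and none was called.

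**Figure D2:**
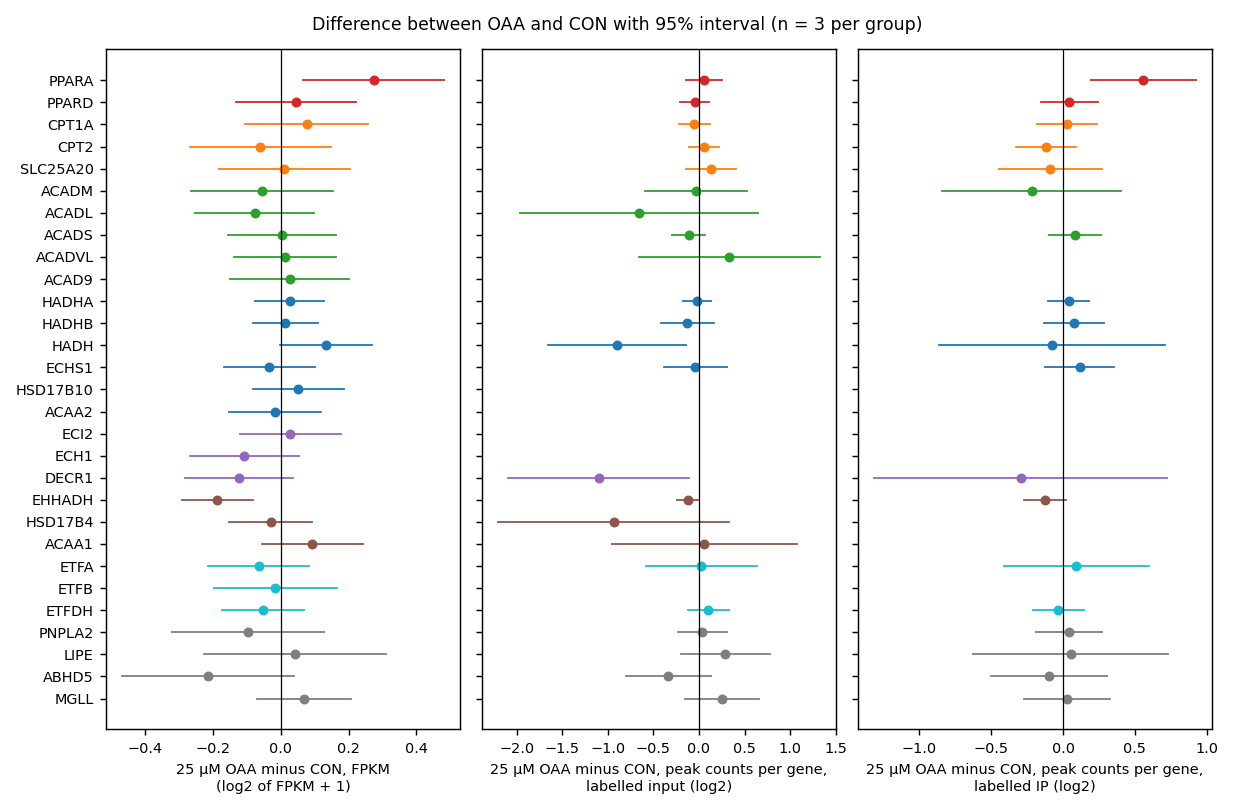
Difference between 25 µM OAA and CON on a log2 scale with its 95% interval, for each gene in order of role (PPARs, carnitine shuttle, acyl-CoA dehydrogenases, the remaining mitochondrial steps, peroxisomal enzymes, electron transfer and lipolysis). The left panel plots log2(FPKM + 1), the middle and right panels counts summed over peaks of the gene's own in libraries titled input and IP. PPARA and EHHADH lie off 0 on the left, at 0.27 and -0.19, and no gene passed the adjusted threshold in any panel.

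Other genes of the same metabolism, from lists drawn up for this comparison, showed differences of a similar size. In a list of 20 genes of carnitine handling and peroxisomal oxidation, 15 could be tested, 0 were called and 1 had an unadjusted p under 0.05, with 4 above and 11 below 0 and a median of -0.06. That gene was ACAD11, an acyl-CoA dehydrogenase, with 6.28, 5.64 and 6.22 FPKM in CON and 4.98, 4.63 and 5.79 with OAA (-0.20 ± 0.09). ACOX3, a peroxisomal acyl-CoA oxidase, stood next lowest at -0.11 ± 0.10, and HACL1 (0.10 ± 0.11) and ALDH9A1 (0.06 ± 0.04) highest.

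Among 24 PPAR partners, energy sensors and PPAR targets, 17 were tested and 0 called, 8 above and 9 below 0, with a median of -0.02. MLYCD, malonyl-CoA decarboxylase, was lowest at -0.19 ± 0.11, then PRKAA1, a catalytic subunit of AMP-activated kinase, at -0.14 ± 0.08. LPIN1 (0.17 ± 0.09) and the lipid droplet protein PLIN2 (0.12 ± 0.07) were highest. PLIN2 had 18.3, 18.5 and 20.0 FPKM in CON and 21.9, 20.8 and 19.5 with OAA, so that the groups overlapped.

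Of 12 genes of ketone body and branched-chain acyl-CoA breakdown 11 were tested, 5 above and 6 below 0, from HIBCH (-0.16 ± 0.12) and PCCA (-0.11 ± 0.07) to BDH1 (0.10 ± 0.10). Of 12 lipolysis regulators and other lipases 6 were expressed enough to test, 4 above and 2 below 0, from ABHD6 (-0.05 ± 0.07) and ABHD12 (-0.01 ± 0.06) to PLIN3 (0.01 ± 0.09) and HILPDA (0.09 ± 0.10). Neither list held a called gene or one with an unadjusted p under 0.05, and the lowest adjusted p in limma over the 4 lists was 1.00.

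Most peaks of the pathway had a low peak ratio in untreated cells, and PPARA and PPARD stood at the other end. Of 55 peaks tested in CON by edgeR's quasi-likelihood test with Benjamini-Hochberg adjustment, 14 (25.5%) were called higher in labelled input, against 34.9% of all peaks, and 30 (54.5%) lower, against 34.6%. Their median was -0.70, beside 0.01 over all 23366 peaks tested. With library size as the only scaling the median of all peaks moved to -0.33, that of these peaks to -1.04, and the calls to 7 higher and 32 lower. Without CON labelled-IP replicate 2, 9 were called higher. The peaks were similar in width to the rest, with a median of 249 bp beside 300 bp, and 2 of them, in HADHB and PPARD, spanned over 10000 bp.

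Among peaks under 1 gene, low ratios were found in all regions except the 5′ UTR. Of the 44 peaks under 1 gene, 47.7% touched a 3′ UTR, 27.3% a stop codon, 52.3% coding sequence and 27.3% a 5′ UTR, beside 40.0%, 25.2%, 62.2% and 22.7% of all such peaks. The 12 stop codon peaks of the pathway had a median ratio of -0.88, 2 called higher and 8 lower, where the 5280 stop codon peaks tested in all had a median of 0.37, with 48.3% called higher and 31.1% lower. The 9 peaks lying wholly in a 3′ UTR had a median of -1.15 (all such peaks -0.26), with 3 higher and 5 lower (27.4% and 40.6% of all). The 9 wholly in coding sequence had -0.87 (all -0.04), with 3 higher and 5 lower (34.3% and 36.2%). The 9 start codon peaks had -0.51 (all -0.19), with 0 higher and 4 lower (25.4% and 34.9%). The 3 peaks wholly in a 5′ UTR went the other way, with a median of 1.91 (all 0.36), 2 higher and 0 lower (36.7% and 19.1%). The 2 higher calls, in ACAA1 and PPARD, rested on 5 and 4 labelled-IP counts in CON. Among peaks shared between genes, some in a 5′ UTR had low ratios, as given below. Ratios were lower in more highly expressed genes. Spearman's rho between the CON ratio per gene and mean FPKM was -0.52 over 8644 genes and -0.43 over 22 of the pathway, and both measures share the labelled-IP libraries.

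The receptors were mostly at the high end, and the PPARD 5′ UTR peak had the highest ratio of the 55. PPARA had a pair of neighbouring peaks on the reverse strand of chromosome 5, 1 in the 3′ UTR (chr5:3301808-3302482) and 1 from coding sequence over the stop codon into the 3′ UTR (chr5:3302508-3305494). The genome build is not given in the sources used here. In the first, CON libraries held 29.3, 28.4 and 26.9 CPM (counts scaled to the reads in peaks of the library) in labelled input and 10.3, 7.40 and 5.56 in labelled IP. All labelled-input libraries lay above all labelled-IP libraries, and the ratio was 1.90 ± 0.19 (SE, edgeR adjusted p 4.75e-09). The second had a ratio of 1.86 ± 0.19.

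PPARD, on the forward strand of chromosome 7, carried peaks of opposite sign in its 3′ UTR. The peak at chr7:31293334-31294083 held 229, 216 and 223 CPM in labelled input and 78.8, 98.9 and 85.8 in labelled IP, a ratio of 1.38 ± 0.08. Further downstream, a 50 bp peak at chr7:31294659-31294708 held 5.33, 7.41 and 7.72 CPM against 21.0, 22.6 and 22.0, a ratio of -1.65 ± 0.19. A wide peak in the 5′ UTR (2.66 ± 0.69) rested on 105 counts in labelled input and 4 in labelled IP, which scale to a ratio of 6.61 with a 95% interval from 2.51 to 24.7 for counting error only.

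In CPT1A, on chromosome 2, the last peak along the 3′ end lay well below the others. The leading peak (chr2:4292057-4292681) held 40.3, 43.7 and 44.4 CPM in labelled input and 29.1, 36.0 and 36.0 in labelled IP. The stop codon peak, this peak and the next had ratios of 0.35 ± 0.15, 0.38 ± 0.12 and 0.17 ± 0.18, and the last peak, at chr2:4293307-4293456, -1.68 ± 0.28. CPT2 differed between a coding peak (chr6:159040719-159041443, 0.60 ± 0.10, from 69.7, 77.2 and 80.1 CPM against 48.6, 54.6 and 50.5) and the stop codon peak (-0.70 ± 0.15). The stop codon peak of SLC25A20 (chr13:31524296-31524570) lay at 0.05 ± 0.16, with 18.5, 19.1 and 19.0 CPM against 22.4, 18.8 and 14.99, which overlapped. The 8 carnitine peaks had a median of 0.11, with 3 called higher and 2 lower (34.9% and 34.6% of all peaks). The higher call of CPT1A's leading 3′ UTR peak was lost with library size as the only scaling (0.04) and without CON labelled-IP replicate 1 (0.26). With library size as the only scaling, CPT1A's next peak downstream turned from 0.17 to -0.17, so its sign depends on the scaling.

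Of 10 peaks of the mitochondrial hydratases, hydroxyacyl-CoA dehydrogenases and thiolases, 8 were called lower and 1 higher (34.6% and 34.9% of all peaks). The higher one, a HADHB peak shared with HMGN1, rests on 75 counts in labelled input and 3 in labelled IP. It lies in HMGN1 coding sequence and stop codon, and in no annotated exon of HADHB. HADHA and HADHB encode the subunits of the trifunctional protein, which acts on long chains, and their genes stand head to head on chromosome 3. The HADHA stop codon peak (chr3:112797263-112797712) held 99.1, 99.1 and 104 CPM in labelled input and 192, 202 and 198 in labelled IP, a ratio of -0.93 ± 0.07. The HADHB stop codon peak (chr3:112712972-112713046) had -1.71 ± 0.15, from 13.7, 15.02 and 10.6 CPM against 39.2, 49.4 and 42.3. The genes overlap at their 5′ ends. A 208 bp peak there, listed in the 5′ UTR of both, had -2.96 ± 0.13. It held 7.39, 9.63 and 8.45 CPM against 68.5, 67.4 and 67.0.

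ECHS1 had a ratio of -1.38 ± 0.15 at its start codon peak (chr14:141347173-141348784), from 31.04, 20.8 and 19.0 CPM against 63.8, 64.2 and 61.4. Its small 3′ UTR peak, with 40 counts in labelled input and 0 in labelled IP in CON, did not pass the filter on low counts. Without that filter it was called higher (edgeR adjusted p 0.00956), and no fold is given against 0 counts. HADH had a start codon peak (chr8:114005330-114005504) at -0.26 ± 0.35, which did not pass, with 2.97, 3.03 and 3.33 CPM against 2.91, 4.00 and 4.59. HSD17B10 had the lowest ratios of these genes, -3.61 ± 0.12 at its start codon (chrX:46219691-46220795) and -3.52 ± 0.14 at its stop codon. The start codon peak held 15.2, 10.4 and 15.1 CPM in labelled input and 187, 163 and 165 in labelled IP. Both peaks are also listed under SMC1A, on the same strand, and RIBC1, on the opposite strand, and how reads were shared among such genes is not given in the sources used here.

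Among the dehydrogenases, ACADS, which acts on short chains, went from 0.11 ± 0.20 at its 5′ UTR to -1.11 ± 0.28 and -2.04 ± 0.16 at its coding peaks and -0.86 ± 0.10 at its stop codon (chr14:40656355-40656554). That last peak, with the most counts, held 42.0, 36.9 and 40.6 CPM in labelled input and 71.9, 75.0 and 76.6 in labelled IP. The peaks lie under 2 gene spans listed for the same identifier. ACADM (chr6:137568275-137575553, -0.51 ± 0.26), ACADL (chr15:112969405-112969529, 0.82 ± 0.66) and ACADVL (chr12:52576476-52576724, 1.05 ± 0.63) did not pass, and the latter pair rested on 9 and 12 counts in labelled IP. ACADM held 5.63, 6.74 and 6.37 CPM against 7.17, 7.00 and 13.5. ACADL held 1.36, 0.808 and 1.21 CPM against 0.672, 1.00 and 0.242, and ACADVL 0.654, 1.95 and 2.75 against 0.672, 1.20 and 0.725. In ACADVL and ACADL the labelled-input and labelled-IP libraries overlapped. For ACADM the test passed with library size as the only scaling (-0.85). ACAD9 had a stop codon peak shared with an unnamed gene, at 0.36 ± 0.15.

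All 4 electron transfer peaks were called lower, as were 34.6% of all peaks. ETFDH, which passes electrons to ubiquinone, had a coding peak (chr8:47653536-47653952) with 19.9, 19.5 and 19.1 CPM in labelled input and 75.5, 85.3 and 71.8 in labelled IP. Its ratio was -1.95 ± 0.11, and that of its stop codon peak -1.67 ± 0.12. ETFA (chr7:56526865-56527337) had -0.97 ± 0.27, from 6.34, 3.64 and 4.25 CPM against 9.85, 11.4 and 7.49, and ETFB, in a peak shared with CLDND2, -1.13 ± 0.30.

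The auxiliary isomerases of unsaturated chains lay below 0 as well, with ECI2 at -0.47 ± 0.11 and ECH1 at -0.94 ± 0.23, both in shared peaks. DECR1, the dienoyl-CoA reductase, did not pass (chr4:46752899-46752948, -0.37 ± 0.44), with 2.31, 1.82 and 1.98 CPM against 1.57, 3.20 and 3.38.

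EHHADH, in the peroxisome, had a coding peak on chromosome 13 (chr13:123106691-123107115) with the highest counts of any peak of its own in these genes. It held 291, 285 and 299 CPM in labelled input and 247, 258 and 251 in labelled IP. The ratio was 0.25 ± 0.06 (edgeR adjusted p 0.000798), and -0.09 with library size as the only scaling, so that its direction depends on the scaling. HSD17B4 had 1 small start codon peak (chr2:123313523-123313572) with 74 counts in labelled input and 12 in labelled IP in CON, or 0.704, 1.01 and 2.17 CPM against 0.672, 1.40 and 0.484, which overlapped. It did not pass the filter on low counts, and without that filter its ratio was 0.58 ± 0.68 (edgeR adjusted p 0.456).

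ACAA1 overlaps MYD88, an adaptor of innate immune receptors on the opposite strand, and 5 of its 6 peaks are listed under both genes. Of these, 2 lie in MYD88 coding sequence or 3′ UTR and in no annotated exon of ACAA1. The only peak of its own, in the 5′ UTR (chr13:23018248-23018793), had 1.91 ± 0.75 from 77 counts against 5, or 1.66, 1.08 and 1.35 CPM against 0.672, 0.400 and 0. The call was lost in DESeq2 (adjusted p 0.0512), with library size as the only scaling (1.58) and without CON labelled-IP replicates 2 (1.97) and 3 (1.36), and with all 6 peaks summed the gene's ratio was -0.19. A shared peak at the 5′ UTR, which also covers the MYD88 start codon (chr13:22976929-22977078), had -3.22 ± 0.17.

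Lipolysis peaks were mostly lower, 8 of 10 with 1 higher (34.6% and 34.9% of all peaks), and had a median of -1.05. PNPLA2 had 4 peaks on chromosome 2 between -1.77 ± 0.24 and -0.90 ± 0.15, the highest of them at its stop codon (chr2:517528-517752), with 24.5, 16.8 and 16.7 CPM against 38.3, 35.8 and 37.5. ABHD5, at its stop codon (chr13:27053480-27053604), held 4.48, 4.92 and 5.36 CPM against 10.7, 14.4 and 12.8, a ratio of -1.33 ± 0.23. MGLL, at its stop codon (chr13:72566581-72566680), held 12.0, 5.52 and 8.11 CPM against 35.4, 28.0 and 26.1, a ratio of -1.75 ± 0.21. In both genes every labelled-input library lay below every labelled-IP library. LIPE differed, with a coding peak at 0.95 ± 0.31 (chr6:49549373-49550963), from 8.95, 6.33 and 6.08 CPM against 3.58, 2.60 and 5.32. That call was lost with library size as the only scaling (0.61) and without CON labelled-IP replicate 2 (0.70).

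**Figure D3:**
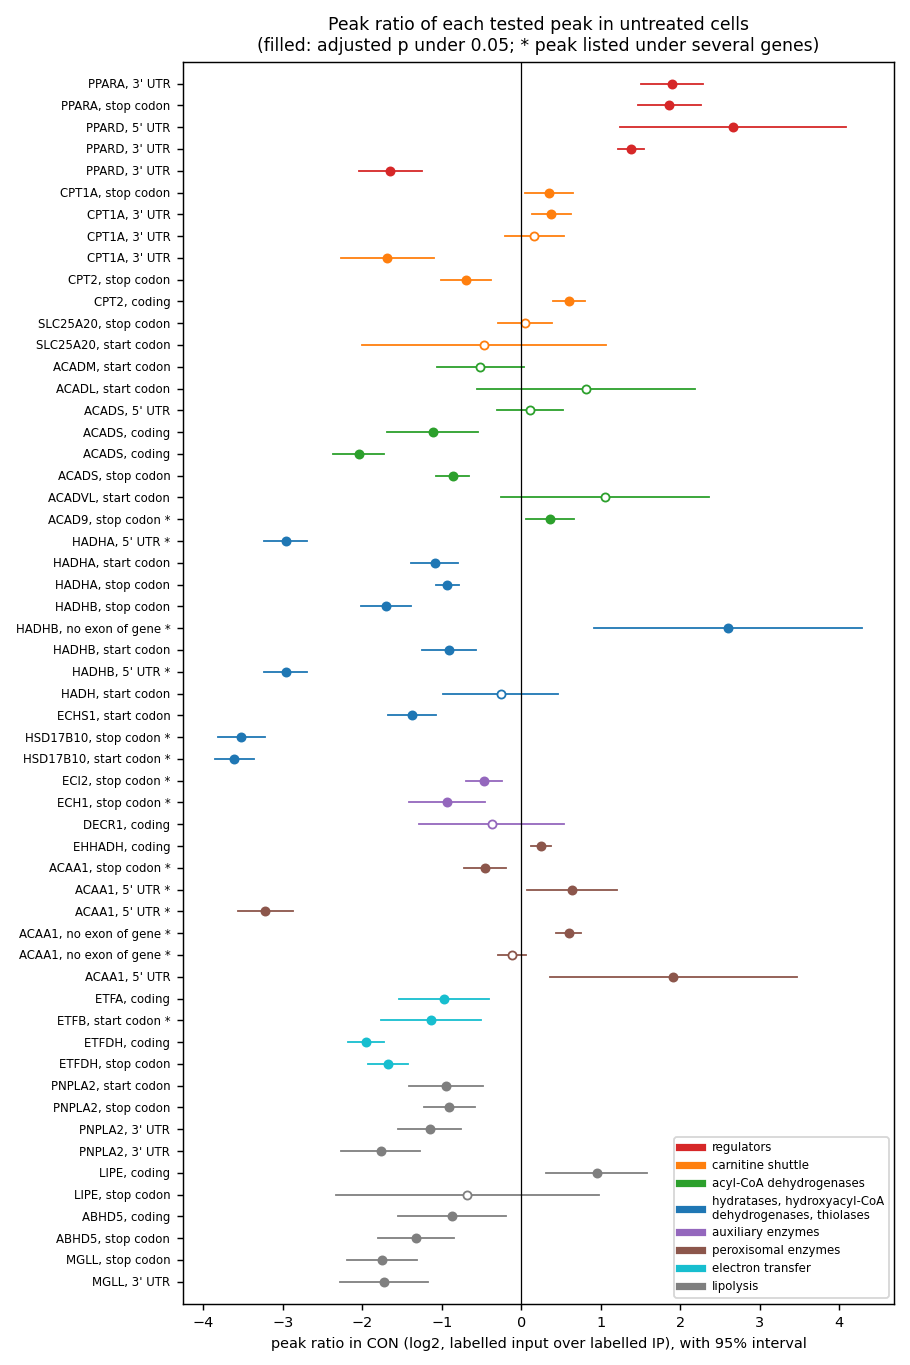
Peak ratio in CON (log2 of labelled input over labelled IP) of each tested peak with its 95% interval, listed by gene in order of role and named by its region. The peak shared by HADHA and HADHB is drawn under both, and filled points passed an adjusted p of 0.05. PPARA and most PPARD peaks lie right of 0, and the peaks of HSD17B10, ETFDH, HADHA and PNPLA2 left of it.

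Summed over peaks under 1 gene, 22 genes could be tested in CON. edgeR called 3 higher, against 39.3% of all genes, and 10 lower, against 38.7%. The higher genes were PPARA (1.62 ± 0.13), ACAA1 (1.66 ± 0.73) and PPARD (0.85 ± 0.07). The lowest were ETFDH (-2.09 ± 0.08), MGLL (-2.00 ± 0.18), HADHB (-1.60 ± 0.12) and ECHS1 (-1.60 ± 0.15). CPT1A, CPT2 and EHHADH lay near 0, at -0.08 ± 0.09, -0.03 ± 0.08 and -0.01 ± 0.05. The per-gene fit has its own TMM scaling, so per-peak and per-gene ratios are not on the same scale. The only peak of EHHADH, with the same counts, had 0.25 in the per-peak fit.

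The pattern in OAA-treated cells was close to that in CON. Of 54 peaks tested, edgeR called 12 higher, against 33.6% of all peaks, and 30 lower, against 34.4%. With library size as the only scaling these were 8 and 35. The difference in ratio between the treatments was called in 0 of 56 peaks by edgeR with Benjamini-Hochberg adjustment, where 0% of all 24145 peaks was called, and DESeq2 called none of them. At an unadjusted p under 0.05 there were 4 of 56, against 4.46% of all peaks. The median difference was 0.04, with 29 above and 27 below 0. In the authors' deposited table the PPARD 5′ UTR peak, alone among the 57, had a p-value under 0.05 (0.0285), and none passed after the authors' adjustment.

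Of the 4 peaks, the PPARA 3′ UTR peak went from 1.90 to 1.24 ± 0.17, a difference of -0.63 ± 0.26 (unadjusted p 0.0230, adjusted p 0.999 in edgeR). Labelled input held 25.9, 33.6 and 27.6 CPM with OAA, overlapping CON, and labelled IP 11.3, 13.4 and 12.5, above all CON libraries. Without CON labelled-IP replicate 3 the difference was -0.45 (unadjusted p 0.103 in edgeR). The stop codon peak of PPARA had a difference of -0.39 ± 0.27.

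The ACADS coding peak at chr14:40632382-40632456 went from -1.11 to -2.26 ± 0.31, a difference of -1.12 ± 0.42 (unadjusted p 0.0121 in edgeR), with 4.38, 5.66 and 3.38 CPM in labelled input of CON and 3.37, 1.37 and 2.29 with OAA. These groups touched without overlapping, at 3.38 and 3.37 CPM, and the other ACADS peaks had differences from -0.40 to 0.40. The PPARD 5′ UTR peak went from 2.66 to 0.10 ± 0.65 (-2.54 ± 1.05, unadjusted p 0.0222 in edgeR), on 67 counts in labelled input and 17 in labelled IP with OAA. Of those 17 counts 12 came from 1 library, and without it the difference was -1.40 (unadjusted p 0.258 in edgeR). The ACAA1 and MYD88 peak at -3.22 went to -2.75 ± 0.18 (unadjusted p 0.0453 in edgeR).

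**Figure D4:**
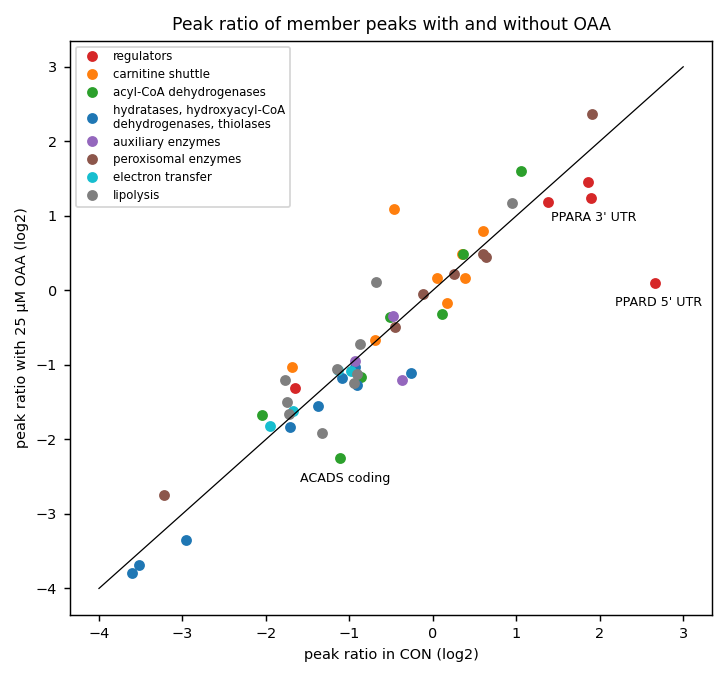
Peak ratio with 25 µM OAA against the peak ratio in CON, both log2 of labelled input over labelled IP, for 53 peaks coloured by role, with the line of equal ratios. A HADHB peak shared with HMGN1, with 0 labelled-IP counts under OAA, is left out. So is the ACADL peak, which was not tested with OAA. Most points lie near the line, and the PPARD 5′ UTR peak, which goes from 2.66 to 0.10, lies farthest below it.

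In counts per gene over its own peaks, OAA against CON gave no call in either kind of library. CPM per gene are scaled within 1 kind of library. They cannot be set against CPM of the other kind or of single peaks. In labelled input, edgeR called 0 of 23 genes, where 0% of 9298 genes was called, and DESeq2 called none of the 23. At an unadjusted p under 0.05 there were 3 of 23, against 4.87% of all genes. In labelled IP, edgeR called 0 of 19 genes, where 0% of 8138 genes was called, and 1 of 19 had an unadjusted p under 0.05, against 3.65%. Medians were -0.03 and 0.03. DESeq2 called no gene at all in labelled IP. Without OAA labelled-IP replicate 3, edgeR called 44 genes in labelled IP, none of them from the pathway. Groups without overlap were counted over all genes for FPKM only, not for counts per gene or per peak. How common such separation is in counts is therefore not given.

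PPARA had higher values with OAA in labelled IP. It had 23.2, 17.9 and 19.4 CPM there in CON and 28.8, 32.3 and 28.0 with OAA, so that the groups did not overlap, a difference of 0.56 ± 0.17 (unadjusted p 0.00460, adjusted p 1.00 in edgeR). In labelled input it had 54.0, 59.3 and 58.3 CPM in CON and 57.1, 65.9 and 55.0 with OAA, which overlapped (0.05 ± 0.09). The labelled-IP counts and the FPKM come from the same libraries, so the higher PPARA values in both are 1 observation. The lower ratio of its 3′ UTR peak with OAA uses these libraries too and is not a separate observation. Across the alternatives run, the labelled-IP difference lay between 0.47 and 0.67, with adjusted p from 0.146 to 1.00.

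EHHADH had a lower mean with OAA in both kinds of library. Its counts per gene are those of its only peak, given above on another CPM scale. Labelled input held 304, 297 and 311 CPM in CON and 274, 270 and 294 with OAA, which did not overlap (-0.12 ± 0.06, unadjusted p 0.0470, adjusted p 0.929 in edgeR). Labelled IP held 324, 339 and 331 CPM in CON and 288, 298 and 327 with OAA, which overlapped (-0.12 ± 0.07, unadjusted p 0.0927 in edgeR). Its peak ratio differed by -0.01 ± 0.10 between the treatments. The FPKM of EHHADH come from the same labelled-IP libraries, so its lower FPKM and lower labelled-IP counts are 1 observation.

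**Figure D5:**
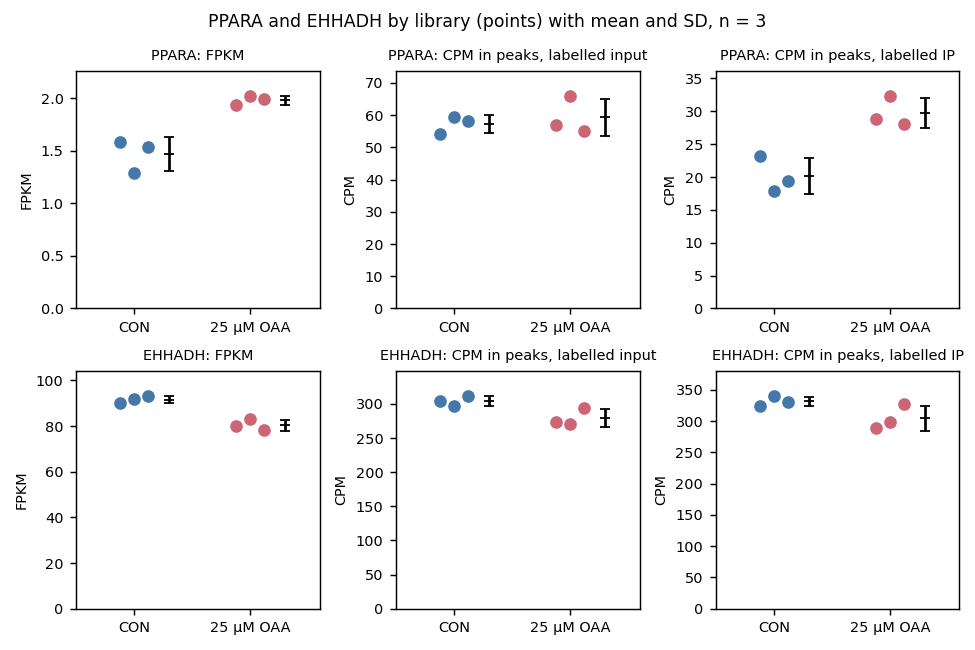
PPARA (top) and EHHADH (bottom) in each library of CON and 25 µM OAA, as FPKM and as CPM in peaks of the gene's own in libraries titled input and IP, with mean and SD (n = 3) beside the points and axes starting at 0. PPARA is separated in FPKM and labelled IP and overlaps in labelled input. EHHADH is separated in FPKM and labelled input, and its OAA replicate 3, at 327 CPM, reaches into the CON range in labelled IP.

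HADH and DECR1 were the other genes with a low unadjusted p in labelled input, on few counts. HADH had 3.10, 3.15 and 3.46 CPM in CON and 1.89, 1.47 and 1.86 with OAA, a difference of -0.90 ± 0.36 (unadjusted p 0.0232, adjusted p 0.929 in edgeR), opposite in sign to its FPKM. DECR1 had 2.42, 1.89 and 2.06 CPM in CON and 0.539, 1.41 and 1.02 with OAA, a difference of -1.10 ± 0.47 (unadjusted p 0.0315, adjusted p 0.929 in edgeR), from a single peak of 50 bp. Both sets of groups were separate. In labelled IP the same genes overlapped, at -0.08 ± 0.37 and -0.29 ± 0.49.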

How the data were processed

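The deposited peak table gives, per the file headers, read counts of 12 libraries in merged peaks, and the authors' log2 ratio per treatment with a p-value for its difference. The deposited gene table gives FPKM of 6 libraries. The authors' −log10 p columns, per the file headers, were not used. The submitters' processing notes name Bowtie2 and HISAT2. Their versions, the peak caller, strand handling and build were not given in these sources. Columns were matched to samples by the library codes in the labels (0 unmatched). Positions count from 1.

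Counts were compared over all peaks or genes with edgeR 4.0.16 in R 4.3.3 (TMM, filterByExpr, quasi-likelihood F test), and log2(FPKM + 1) of genes with at least 1 FPKM in 3 libraries with limma 3.58.1 (trend), with a call at a Benjamini-Hochberg adjusted p under 0.05. SE in edgeR is the log2 difference over the square root of F. Per-gene counts sum peaks listed under 1 gene. CPM are relative to TMM-scaled reads in peaks, scaled over all 12 libraries for single peaks and within 1 kind of library for counts per gene. DESeq2 1.42.0 was an alternative, and the procedures were tested on simulated data. The genes, roles and lists were chosen with earlier results of these data known. Every gene on the list is described. Its peak with the most counts under 1 gene is given with its position, CON values and ratio, and from each other list the 2 highest and 2 lowest differences, of which 1 is not reported here. No sequence is printed, since none of these genes' sequences was in the sources used.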

Additional observations from a re-analysis of the deposited data

How the results depend on the processing

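The number of peaks called higher in CON, 14 of 55, was 7 with library size as the only scaling and 9 to 11 with 1 library left out, lowest without labelled-IP replicate 2. The pathway's other counts of calls stayed within 1.5 times the main count under every alternative run. With library size as the only scaling, 4 peaks turned from above to below 0 in CON and 5 with OAA, where TMM scaling sets the typical peak to 0. Of leading peaks these were EHHADH (-0.090 in CON, -0.069 with OAA), SLC25A20 (-0.30, -0.13) and, with OAA, CPT1A (-0.12). With peaks shared with other genes added, ACAA1 per gene turned to -0.19 in CON. With a replicate block by number, 44 peaks were called in CON (14 higher, 30 lower), 42 with OAA, 12 genes in CON, and 0 in the change of the ratio and each comparison of OAA with CON, and among single genes and their leading peaks only the per-gene call of ACAA1 in CON was lost (1.67, edgeR adjusted p 0.0683). Same-numbered libraries correlated at -0.0588 to 0.0563 after group means were removed, so the numbers were not taken to pair them. A block by replicate within treatment, chosen after seeing the data, also gave 0 calls for the change. Depth limits the small peaks, of which several rest on fewer than 20 labelled-IP counts, and the 3 libraries per group limit every comparison of OAA with CON.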
